A study of Mus musculus with 24 samples.

Results

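The comparison of mice after 10 days of chronic social defeat stress (CSDS) with their own day 10 controls rested on 6 of the 24 RNA sequencing libraries of the series, the 3 columns of stressed mice and the 3 columns of unstressed mice labelled for that day. All mice were male C57BL/6J, an inbred laboratory strain, with an age given as 8-14 weeks, and the tissue was the lateral septum (LS). In CSDS a mouse meets an aggressive male of the larger CD-1 strain for 10 min a day and is then housed across a clear barrier from it. The controls of each day (1, 4, 7 and 10) were age-matched and unstressed. The other 18 libraries entered as further estimates of the spread between libraries and as the other days against which day 10 was set. The labels do not state that each library is a separate animal, so p-values here measure the spread between libraries.

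The LS is a forebrain nucleus made largely of inhibitory neurons that receives input from the hippocampus and projects to the hypothalamus, and it takes part in social, defensive and stress-related behaviour. The title of the series names MANF, which resides in and is released from the endoplasmic reticulum (ER), where membrane and secreted proteins are folded. Unfolded protein in the ER frees the sensors IRE1, PERK and ATF6 from the chaperone BiP, and the transcription factors they activate raise the genes of ER chaperones. In the cytosol, heat shock factor 1 does the same for the heat shock proteins.

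Total counts of the 6 libraries lay between 31182747 and 41205354. Of 28859 genes in the table, 18060 passed the filter on low counts and were tested. In control replicate 1 the locus LOC118568312 took 6.03% of all counts (95% Wilson interval 6.02 to 6.04, counting error only), against 0.0137% to 0.0325% in the other 5. That library also had the fewest genes detected of the 24, at 21521. Over all genes tested it was the highest of the 6 libraries for 28.2% and the lowest for 25.9%. Called genes below are therefore also given without it. The first principal component of the 6 libraries held 38.9% of the variance and the second 22.3%, and neither separated the groups: on the first, CSDS replicate 2 lay between control replicates 2 and 3.

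The tissue label was set against marker genes. Markers of LS neurons were present in all 6 libraries, with Zic1 at 489 to 664 CPM (counts scaled to library size), Trpc4 at 105 to 158 and Prdm16 at 92.4 to 147. The libraries also held RNA of neighbouring tissue. The 20 markers of choroid plexus epithelium summed to 14706, 10469 and 5010 CPM in control replicates 1 to 3 and to 451, 10238 and 411 in CSDS replicates 1 to 3. CSDS replicates 1 and 3 were far below all others, while CSDS replicate 2 stood beside the controls. All 20 had log2 fold changes (CSDS minus control) below 0, with a median of -1.44, and none had an unadjusted p under 0.05. Markers of striatal neurons had 13 of 14 values below 0 (median -0.44), those of myelinating oligodendrocytes 13 of 14 (median -0.37), those of cortical and hippocampal excitatory neurons 3 of 16 (median 0.32) and those of LS neurons 4 of 15 (median 0.18). Without control replicate 1 the medians were -0.73 for striatal neurons, with 11 of 14 lower at an unadjusted p under 0.05 against 3 with it, -0.20 for myelinating oligodendrocytes, 0.28 for excitatory neurons, 0.076 for LS neurons and -1.12 for choroid plexus. The 8 blood markers that were tested had none below 0, and their sum stood at 147 CPM in CSDS replicate 2 and at 2.57 to 29.9 in the other 5. In bulk tissue, fewer cells of a type and less RNA per cell cannot be told apart.

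**Figure D1:**
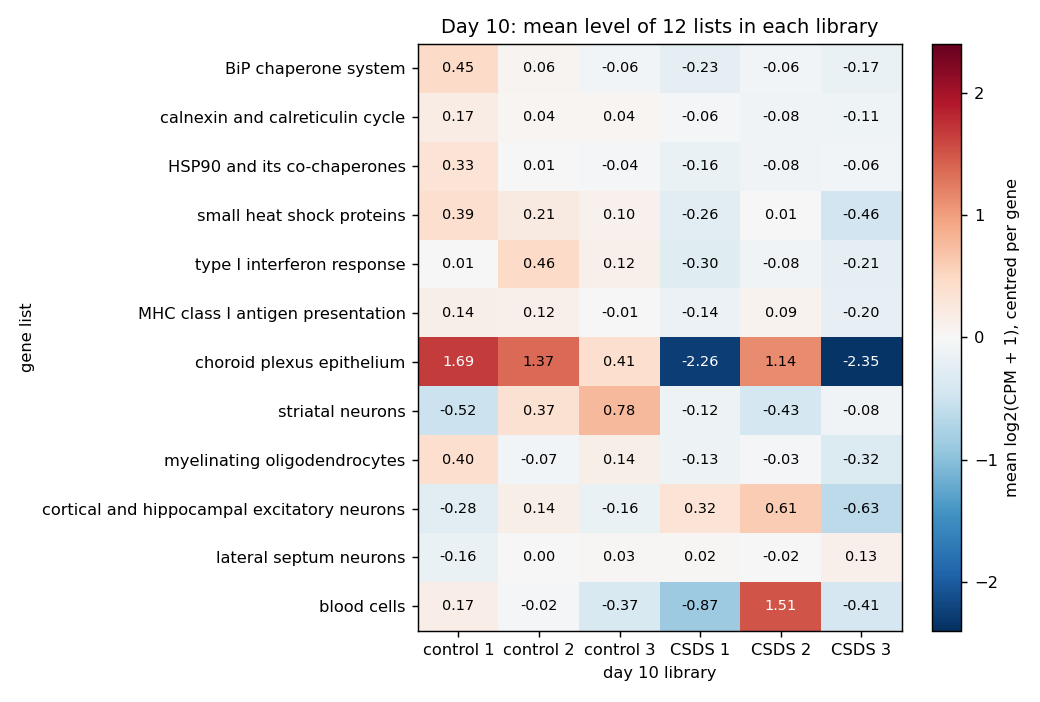
Mean level of 12 gene lists in the 6 day 10 libraries, as log2(CPM + 1) centred on each gene's mean over the 6 libraries (rows: lists; columns: libraries; colour and number: mean over the list). The choroid plexus row runs from -2.35 in CSDS replicate 3 to 1.69 in control replicate 1, and the BiP chaperone row is highest in control replicate 1, at 0.45.

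After 10 days of CSDS, chaperones of the ER and of the cytosol were among the genes that fell, and the RNA-binding protein Rbm3, the transferrin receptor Tfrc and the imprinted gene Ndn were among those that rose. Of the called chaperones, only Calr and Hspb1 stayed called without control replicate 1. In all, 30 genes (0.166% of those tested) were called, meaning a Benjamini-Hochberg adjusted p under 0.05 in edgeR's quasi-likelihood test. Of these, 21 fell (0.116%) and 9 rose (0.0498%). Control replicate 1 was the highest of the 6 libraries for 17 of the 21 that fell, against 28.2% of all genes tested. Genes that fell tend to be highest in some control, so these shares are not directly comparable. At an unadjusted p under 0.05 there were 1015 lower genes (5.62%) and 1295 higher genes (7.17%). The fold changes of all genes had a median of 0.018 on the log2 scale, with 46.3% of them below 0. In 27 of the 30 called genes the 3 CSDS and the 3 control libraries did not overlap. Over all genes, 7.17% did not overlap with CSDS lower and 8.44% with CSDS higher. Standard errors of these fold changes had a median of 0.0908 among genes of at least 10 CPM.

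**Figure D2:**
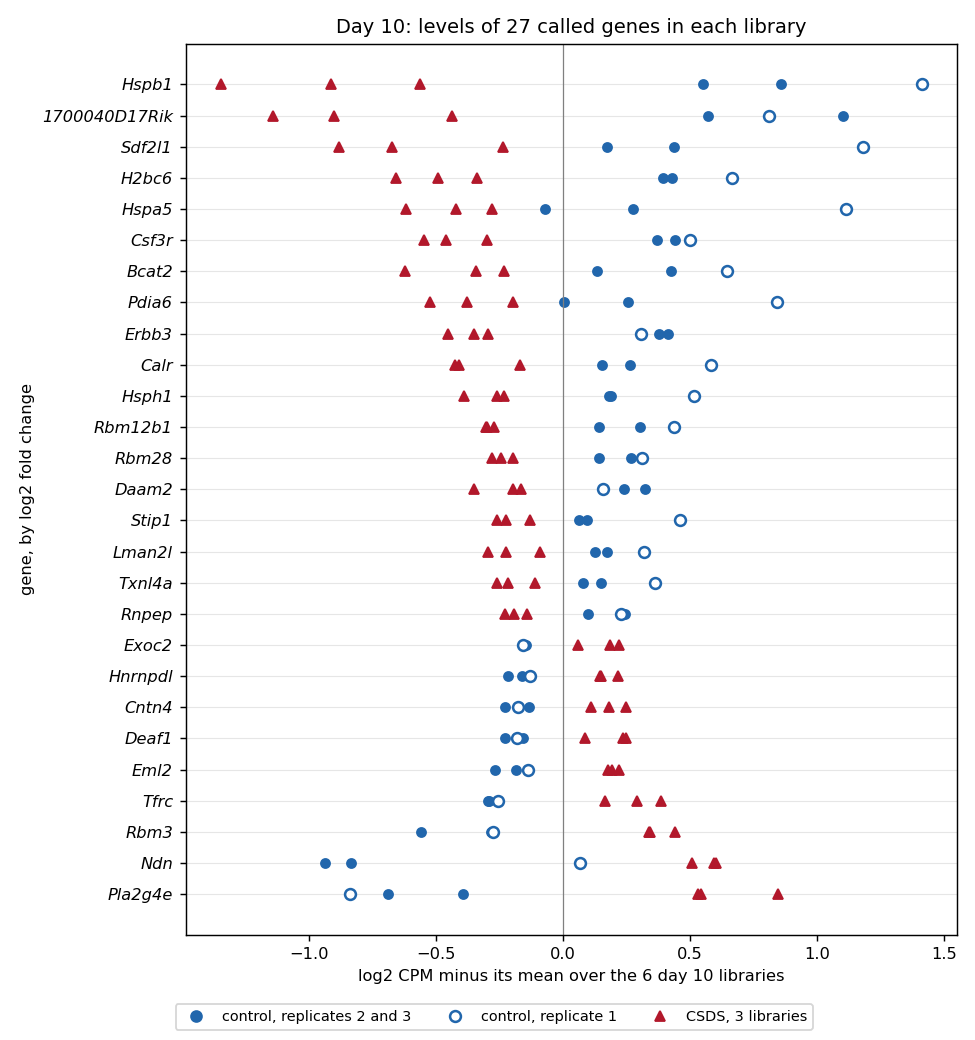
Level of 27 called genes in each day 10 library (x axis: log2 CPM minus the gene's mean over the 6 libraries; y axis: gene, by log2 fold change). Filled circles are control replicates 2 and 3, open circles control replicate 1 and triangles the 3 CSDS libraries; the groups do not overlap for any of the 27, and the 3 called genes left out are those dominated by control replicate 1.

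Among the ER genes that fell were 2 of the 16 tested members of the BiP chaperone system. Hspa5 encodes BiP, the Hsp70 of the ER lumen. It stood at 720, 403 and 317 CPM in control replicates 1 to 3 and at 217, 274 and 248 in CSDS replicates 1 to 3. Control replicate 1 was far above the rest, and the lowest control still exceeded every CSDS library. The mean fell from 480 ± 212 to 246 ± 28.5 CPM (SD, n = 3), a log2 fold change of -0.96 (SE 0.20, adjusted p = 0.0499). Without control replicate 1 it was -0.55 and was not called (adjusted p = 0.176). Sdf2l1, an ER protein that works with BiP, stood at 20.9, 12.5 and 10.4 CPM in controls and at 5.78, 7.83 and 5.01 in CSDS libraries. Here too the first control was highest and the groups were apart. Its log2 fold change was -1.23 (SE 0.25, adjusted p = 0.0496), and without control replicate 1 the value was -0.89 (adjusted p = 0.194).

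The other members of the BiP system did not pass the test. Hsp90b1 (GRP94, the Hsp90 of the ER) had a log2 fold change of -0.61 (adjusted p = 0.0946), from 422 to 695 CPM in controls to 303 to 376 in CSDS libraries. Over the list, 14 of 16 values lay below 0, 9 were lower and 1 higher at an unadjusted p under 0.05, and the median was -0.21. Control replicate 1 was the highest of the 6 libraries for 12 of the 16 genes. Without it, 11 of 16 values lay below 0 with a median of -0.12, beside 45.4% below 0 over all genes, and 6 were lower and 2 higher at an unadjusted p under 0.05 (4.04% and 6.54% of all genes).

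Manf, which is induced with the ER chaperones and binds BiP, stood at 99.4, 63.9 and 47.3 CPM in controls and at 41.5, 47.9 and 41.5 in CSDS libraries. Its lowest control lay just under the highest CSDS library, so the groups overlapped. The log2 fold change was -0.68 with all controls and -0.35 without control replicate 1 (SE 0.17, adjusted p = 0.109 with all), and it was called in neither. The paralog Cdnf was at a low level, 0.803 to 0.938 CPM in controls and 1.22 to 1.73 in CSDS libraries, and its value of 0.79 did not pass (adjusted p = 0.276).

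Lectin chaperones and disulphide isomerases each had 1 called member. Calr (calreticulin), which holds newly made glycoproteins in the ER and binds calcium, stood at 906, 726 and 673 CPM in controls and at 456, 538 and 451 in CSDS libraries. The groups were well apart, with control replicate 1 again highest. Its log2 fold change was -0.67 (SE 0.11, adjusted p = 0.0149), so it fell by 37.3%, and it stayed called without control replicate 1, at -0.54 (adjusted p = 0.0446). The call was lost without CSDS replicate 1 or CSDS replicate 3, with an adjusted p of up to 0.131. Pdia6, an isomerase that forms and rearranges disulphide bonds, stood at 208, 138 and 116 CPM in controls and at 80.5, 101 and 88.9 in CSDS libraries. All CSDS libraries lay below all controls. It fell by 0.77 (SE 0.14, adjusted p = 0.0266), and without control replicate 1 the value was -0.50 (adjusted p = 0.0631).

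Of the 8 calnexin and calreticulin cycle genes, 6 had values below 0 (median -0.14), and 5 were lower at an unadjusted p under 0.05. The median was -0.085 and 3 were lower without control replicate 1. Among the 5 were Uggt1, the sensor of misfolded glycoproteins, at -0.19, and Canx, calnexin, at -0.18, neither of which was called. The 17 isomerases and ER oxidases had a median of -0.10 with all controls and of 0.03 without control replicate 1, so the sign of that median changed with the library. Pdia3 had a value of -0.61 (adjusted p = 0.0836) and Pdia4 -0.69 (adjusted p = 0.152). Ero1a, the oxidase that recharges the isomerases, had 0.17. Lman2l, a lectin that carries glycoproteins out of the ER, stood at 91.7, 80.2 and 82.8 CPM in controls and at 62.9, 69.1 and 60.0 in CSDS libraries, and it fell by 0.41 (SE 0.07, adjusted p = 0.0209). Per unit of transcript length, in the deposited FPKM, the mean of Calr was 390 in controls and 244 in CSDS libraries, that of Hspa5 180 and 92.5, that of Pdia6 70.4 and 41.3, that of Lman2l 13.3 and 10.0 and that of Sdf2l1 12.9 and 5.51.

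The signalling genes of the unfolded protein response and the degradation machinery had no called member. Xbp1, whose mRNA is spliced by IRE1 to make an active factor, had a value of -0.36 (adjusted p = 0.220), and 8 of the 10 sensors and factors lay below 0 (median -0.07), or 6 without control replicate 1 (median -0.09). The integrated stress response, which PERK is 1 of several kinases to start, acts through ATF4. In its list, 11 of 22 values lay below 0 (median 0.0026, or -0.02 without control replicate 1). Atf4 itself had 0.01 and Ddit3, the gene of CHOP, -0.18. The 22 genes of ER-associated degradation, which removes misfolded proteins, had 7 values below 0 and a median of 0.01, or 0.066 without control replicate 1. Derl3, a channel subunit induced with the chaperones, stood apart from these at -1.53 without passing (adjusted p = 0.0918), from 1.48 to 1.76 CPM in controls to 0.439 to 0.685 in CSDS libraries. Medians were -0.06 for 21 genes of the translocon, signal peptidase and oligosaccharyl transferase (0.02 without control replicate 1) and 0.01 for 16 genes of the COPII coat and KDEL receptors.

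Hspa5, Calr and Pdia6 share an ER stress response element in the RefSeq promoter window, which runs from 250 bases before to 50 bases after the annotated start (build GRCm38.p6). The element is the site at which ATF6 acts together with NF-Y. The windows are shown because these 3 are the called genes that hold it. They are printed 5′ to 3′ on the strand of the gene, with the match in capitals. They lie at chr2:34771840-34772139 (+ strand) for Hspa5, chr8:84846882-84847181 (- strand) for Calr and chr12:17266339-17266638 (+ strand) for Pdia6, and the match in Calr is on the opposite strand.
Hspa5: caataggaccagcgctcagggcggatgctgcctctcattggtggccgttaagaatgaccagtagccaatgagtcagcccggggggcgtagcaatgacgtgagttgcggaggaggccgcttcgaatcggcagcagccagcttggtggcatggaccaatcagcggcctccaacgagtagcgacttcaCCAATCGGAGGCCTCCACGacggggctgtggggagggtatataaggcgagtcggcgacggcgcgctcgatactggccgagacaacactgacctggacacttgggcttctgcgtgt
Calr: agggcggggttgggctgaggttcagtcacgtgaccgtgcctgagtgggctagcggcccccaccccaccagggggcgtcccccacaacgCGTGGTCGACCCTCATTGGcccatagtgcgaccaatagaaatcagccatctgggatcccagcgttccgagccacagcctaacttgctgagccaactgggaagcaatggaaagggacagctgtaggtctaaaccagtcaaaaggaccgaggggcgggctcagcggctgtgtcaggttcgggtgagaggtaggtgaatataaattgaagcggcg
Pdia6: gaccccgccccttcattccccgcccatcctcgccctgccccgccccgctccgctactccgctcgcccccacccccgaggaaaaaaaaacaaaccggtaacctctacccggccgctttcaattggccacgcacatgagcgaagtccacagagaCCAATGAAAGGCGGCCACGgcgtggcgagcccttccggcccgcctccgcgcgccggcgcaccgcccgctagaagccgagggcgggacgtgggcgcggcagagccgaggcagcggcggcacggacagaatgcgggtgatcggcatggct
The letters searched were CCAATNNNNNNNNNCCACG on both strands, with N for any base, and they occurred in 0.119% of 32851 windows. Of 14030 tested genes with a window, 22 held them. Of these 22, 16 had a value below 0 with a median of -0.40, 10 were lower and none was higher at an unadjusted p under 0.05, and 3 were called. Over all genes, 5.62% were lower and 7.17% higher at that threshold, and 0.166% were called. Without control replicate 1, 17 lay below 0 and the median was -0.29, and of the 3 called genes only Calr stayed called. The other 19 included Derl3, Hsp90b1 and Canx, at -1.53, -0.61 and -0.18. A match describes these letters in this window and says nothing of binding.

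Cytosolic heat shock proteins held the gene with the smallest p of the comparison. Hspb1 (HSP27), a small heat shock protein that holds unfolded proteins in solution, stood at 20.5, 13.9 and 11.3 CPM in controls and at 4.08, 5.21 and 3.02 in CSDS libraries. The lowest control was more than 2 times the highest CSDS library. Its log2 fold change was -1.89 (SE 0.23, adjusted p = 0.00101), so it fell by 73.0%, and the value was -1.62 without control replicate 1 (adjusted p = 0.00226). It was the gene called in every one of the 6 runs that left out 1 day 10 library, with an adjusted p of at most 0.0240. The related Cryab, alpha B-crystallin, stood at 220.1, 155 and 157 CPM in controls and at 87.1, 111 and 79.1 in CSDS libraries, and Hspb8 at 34.1, 24.4 and 21.5 against 10.7, 19.0 and 8.77. Neither overlapped between groups and neither was called, at -0.94 (adjusted p = 0.0780) and -1.05 (adjusted p = 0.212). The 7 tested genes of the list had a median of -0.02, or 0.0065 without control replicate 1.

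Hsph1 encodes Hsp110, which recharges Hsp70 with ATP. It stood at 473, 376 and 377 CPM in controls and at 253, 282 and 276 in CSDS libraries, with no overlap. It fell by 0.60 (SE 0.10, adjusted p = 0.0149), and without control replicate 1 the value was -0.48 (adjusted p = 0.0603). Stip1, the adaptor that passes clients from Hsp70 to Hsp90, stood at 387, 299.7 and 293 CPM in controls and at 235, 257 and 240 in CSDS libraries. It fell by 0.42 (SE 0.09, adjusted p = 0.0499), with -0.29 and no call without control replicate 1 (adjusted p = 0.174). Of the 14 genes of Hsp90 and its co-chaperones, 11 lay below 0 and 8 were lower at an unadjusted p under 0.05, among them Ahsa1 at -0.37, Chordc1 at -0.63 and Fkbp4 at -0.30. The median was -0.25, and -0.10 without control replicate 1, which was the highest library for 11 of the 14.

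The 23 genes of the cytosolic Hsp70 system had 14 values below 0 and a median of -0.10, which moved to 0.01 without control replicate 1. Dnaja4 had -0.45 and the constitutive Hspa8 -0.24, and both were uncalled (adjusted p = 0.156 and 0.243). Chaperonins had a median of -0.04 with all controls and 0.09 without the first. Hsph1 was the called lower gene with a heat shock element, the site of heat shock factor 1. Its RefSeq window, at chr5:149636287-149636586 (- strand, build GRCm38.p6), is shown to place that match, in capitals and on the opposite strand, just after the annotated start.
Hsph1: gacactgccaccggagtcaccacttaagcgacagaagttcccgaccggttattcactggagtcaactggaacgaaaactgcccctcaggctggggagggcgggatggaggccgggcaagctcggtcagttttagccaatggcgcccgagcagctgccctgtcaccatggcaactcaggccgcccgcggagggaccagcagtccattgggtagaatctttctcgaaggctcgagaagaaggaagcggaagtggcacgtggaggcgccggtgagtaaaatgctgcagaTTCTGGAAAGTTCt
The letters searched were GAANNTTCNNGAA on both strands, found in 0.603% of the windows. Of 78 tested genes that held them, 35 lay below 0 with a median of 0.01, 7 were lower and 7 higher at an unadjusted p under 0.05, and 2 were called, Hsph1 lower and Deaf1 higher. The shares over all genes were 5.62% lower and 7.17% higher at that threshold, and 0.166% called.

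**Figure D3:**
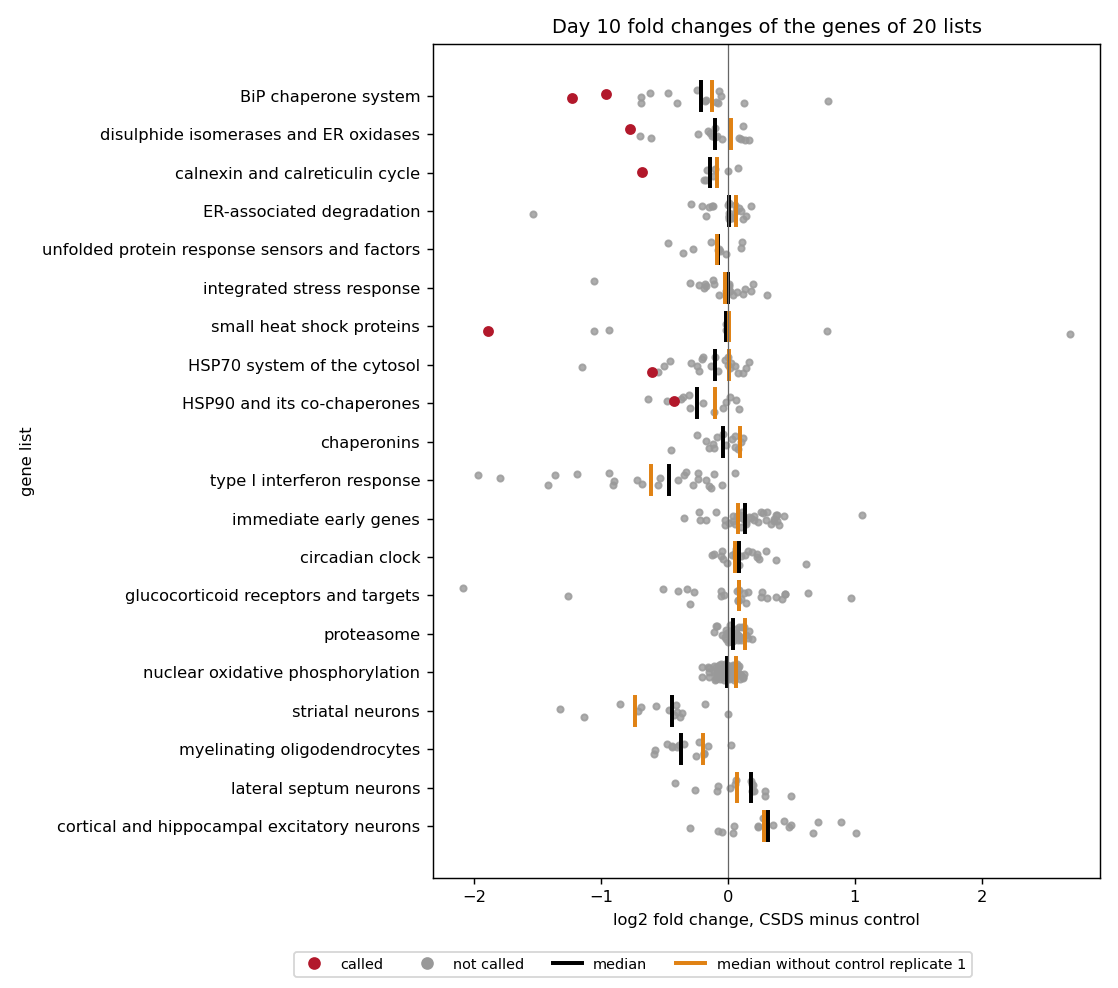
Log2 fold changes (x axis, CSDS minus control) of the tested genes of 20 lists on day 10 (y axis), with called genes in red, the list's median in black and its median without control replicate 1 in orange. The medians of the BiP, calnexin and HSP90 lists move toward 0 without that library, while the median of the interferon list moves from -0.46 to -0.61.

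Choroid plexus RNA was far lower in CSDS replicates 1 and 3 than in the other 4 libraries. CSDS replicate 2 held about as much of it as control replicate 2, at 10238 and 10469 CPM over the 20 markers. In that pair of libraries Hspa5 stood at 274 and 403 CPM, Calr at 538 and 726, Pdia6 at 101 and 138, Hspb1 at 5.21 and 13.9 and Hsph1 at 282 and 376. These genes did not overlap between the groups, so the control is higher in any such pair. Nothing is read from the direction in this pair. With choroid plexus and cortical neuron scores as 2 covariates, Hspb1 stood at -1.66, Calr at -0.58 and Rbm3 at 0.73, and these 3 were the genes called (adjusted p = 0.00119, 0.0329 and 0.0329). Hspa5 then had -0.77 (adjusted p = 0.208), Pdia6 -0.67 (adjusted p = 0.103) and Hsph1 -0.59 (adjusted p = 0.0570).

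A further 3 called genes were high in control replicate 1 alone. LOC118568312 stood at 63695 CPM there, 188 and 324 in the other controls and 141 to 196 in CSDS libraries. Lars2, the mitochondrial leucyl-tRNA synthetase, stood at 8881 CPM there and at 38.2 to 68.7 in the other 5. Gm15564, listed as non-coding, stood at 298 CPM there and at 0.439 to 1.56 in the rest. For all of them the other controls overlapped the CSDS libraries. Their log2 fold changes of -7.05, -6.05 and -7.30 became -0.67, -0.33 and -0.74 without that library, with no call (adjusted p = 0.620, 0.682 and 0.733).

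The remaining genes that fell had diverse roles. Rbm28, a nucleolar RNA-binding protein, stood at 43.9, 42.7 and 39.1 CPM in controls and at 29.96, 30.9 and 29.2 in CSDS libraries, so the replicates of each group were close together. It fell by 0.48 (SE 0.09, adjusted p = 0.0266). Txnl4a, a small protein of the spliceosome, fell by 0.39 (SE 0.08, adjusted p = 0.0499), and Rbm12b1, an RNA-binding protein with a near copy, Rbm12b2, fell by 0.59 (SE 0.11, adjusted p = 0.0354). Erbb3, a neuregulin receptor of oligodendrocyte lineage cells and other glia, stood at 28.2, 30.4 and 29.7 CPM in controls and at 18.6, 16.7 and 17.9 in CSDS libraries. It fell by 0.73 (SE 0.14, adjusted p = 0.0353). Daam2, a formin of Wnt signalling, fell by 0.48 (SE 0.09, adjusted p = 0.0397). The calls of Erbb3 and Daam2 were lost whichever of the 6 day 10 libraries was left out. The 14 myelin markers, none of them called, summed to 12098, 8655 and 9783 CPM in controls and to 8244, 8895 and 7419 in CSDS libraries, and these sums overlapped between groups. Gene by gene, 13 of the 14 markers had values below 0. Of the 14, 6 were lower in CSDS libraries without overlap, beside 7.17% of all genes. Their part in the values of Erbb3 and Daam2 was not tested.

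Bcat2, the mitochondrial branched-chain aminotransferase, fell by 0.80 (SE 0.14, adjusted p = 0.0214), from 9.06 to 12.9 CPM in controls to 5.37 to 7.03 in CSDS libraries. Csf3r, the receptor of granulocyte colony-stimulating factor, fell by 0.87 (SE 0.16, adjusted p = 0.0266), from 5.00 to 5.49 CPM to 2.65 to 3.15. Rnpep, aminopeptidase B, stood at 43.8, 44.4 and 40.1 CPM in controls and at 31.9, 33.9 and 32.7 in CSDS libraries, and it fell by 0.38 (SE 0.06, adjusted p = 0.0168). Rnpep was also called without control replicate 1, at -0.37 (adjusted p = 0.0446). H2bc6, a replication-dependent histone H2B gene whose many copies share sequence, fell by 0.99 (adjusted p = 0.0380), and which copy changed is uncertain. The non-coding 1700040D17Rik, at 0.716 to 1.04 CPM in controls and 0.219 to 0.356 in CSDS libraries, fell by 1.64 (adjusted p = 0.0380).

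Of the genes that rose, Rbm3 had the smallest p. Rbm3 is an RNA-binding protein known for its induction by mild cold. It stood at 34.0, 33.9 and 28.0 CPM in controls and at 52.2, 52.3 and 56.0 in CSDS libraries, far outside the spread of either group. Its log2 fold change was 0.74 (SE 0.11, adjusted p = 0.0109), a rise of 67.6%, and 0.79 without control replicate 1 (adjusted p = 0.0133). Its call was lost without CSDS replicate 3 (adjusted p = 0.0577). Its relative Cirbp, also cold-induced, stood at 48.8, 49.4 and 45.0 CPM in controls and at 76.8, 64.7 and 72.1 in CSDS libraries without overlap, and its value of 0.58 did not pass (adjusted p = 0.0628). Hnrnpdl, a nuclear RNA-binding protein, was at 106 to 113 CPM in controls and 137 to 144 in CSDS libraries, and it rose by 0.34 (SE 0.06, adjusted p = 0.0266). The list of 18 cold-induced and related RNA-binding proteins had these 2 called genes, 9 values below 0 and a median of 0.0032, or 0.082 without control replicate 1.

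Tfrc, the receptor that takes up transferrin-bound iron, stood at 86.4, 84.3 and 84.1 CPM in controls and at 135, 115 and 126 in CSDS libraries. The controls lay within a few CPM of each other and well under the lowest CSDS library. It rose by 0.56 (SE 0.09, adjusted p = 0.0149), or 47.7%, and by 0.57 without control replicate 1 (adjusted p = 0.0446). Its call was lost without CSDS replicate 1 or CSDS replicate 3, with an adjusted p of up to 0.131. None of the other 15 iron genes was called, among them Heph at -0.44 and Trf, transferrin, at -0.35.

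Ndn, necdin, an imprinted gene expressed from the paternal copy in neurons, stood at 391, 209 and 195 CPM in controls and at 567, 531 and 564 in CSDS libraries. Control replicate 1 lay between the other controls and the CSDS group. It rose by 1.06 (SE 0.21, adjusted p = 0.0360), and by 1.45 without that library (SE 0.17, adjusted p = 0.000514). Of the 26 imprinted genes tested, Ndn was the only one called. Pla2g4e, a phospholipase A2 family enzyme, was at 1.29 to 1.75 CPM in controls and 3.33 to 4.14 in CSDS libraries, and it rose by 1.27 (SE 0.24, adjusted p = 0.0357). Smaller rises were those of Eml2, a microtubule-binding protein (0.39, adjusted p = 0.0248), the transcription factor Deaf1 (0.38, adjusted p = 0.0353), the adhesion molecule Cntn4 (0.36, adjusted p = 0.0496) and the exocyst subunit Exoc2 (0.31, adjusted p = 0.0353).

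Without control replicate 1, 12 genes were called (0.0664% of those tested), and 7 of them were among the 30: Hspb1, Calr, Rnpep, Eml2, Tfrc, Rbm3 and Ndn. Among genes that fell and lost their call there, the log2 fold changes were -1.66 for 1700040D17Rik, -0.91 for H2bc6, -0.84 for Csf3r, -0.76 for Erbb3, -0.68 for Bcat2, -0.52 for Daam2, -0.52 for Rbm12b1, -0.45 for Rbm28, -0.35 for Lman2l and -0.31 for Txnl4a, with adjusted p from 0.0603 to 0.176. Among those that rose, they were 1.17 for Pla2g4e, 0.38 for Deaf1, 0.36 for Cntn4, 0.36 for Hnrnpdl and 0.30 for Exoc2, with adjusted p from 0.0539 to 0.134. The 5 genes added had not passed with all controls. Ide, the insulin-degrading enzyme, stood at 48.7, 96.7 and 74.9 CPM in control replicates 1 to 3 and at 46.6, 50.2 and 52.1 in CSDS libraries, so the first control lay inside the CSDS range and the others far above it. On days 1, 4 and 7 the values of Ide were -0.62, -0.61 and -0.26, none of them called. On day 10 its value was -0.57 with all controls (adjusted p = 0.107) and -0.79 without the first (SE 0.09, adjusted p = 0.000376). Btaf1, a regulator of the TATA-binding protein, behaved alike, at 26.1, 46.2 and 40.4 CPM against 28.6, 25.3 and 27.5, with -0.47 and -0.68 (adjusted p = 0.179 and 0.00226). Denr, a factor of translation reinitiation, stood at 46.1 CPM in control replicate 1, 29.98 to 32.2 in the other controls and 38.7 to 47.3 in CSDS libraries, with 0.30 and 0.51 (adjusted p = 0.283 and 0.0133). Scaper, an ER-associated cyclin A partner, had 0.26 and 0.32 (adjusted p = 0.0766 and 0.0446), and Eny2, a subunit of the SAGA co-activator, 0.26 and 0.33 (adjusted p = 0.0705 and 0.0370).

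**Figure D4:**
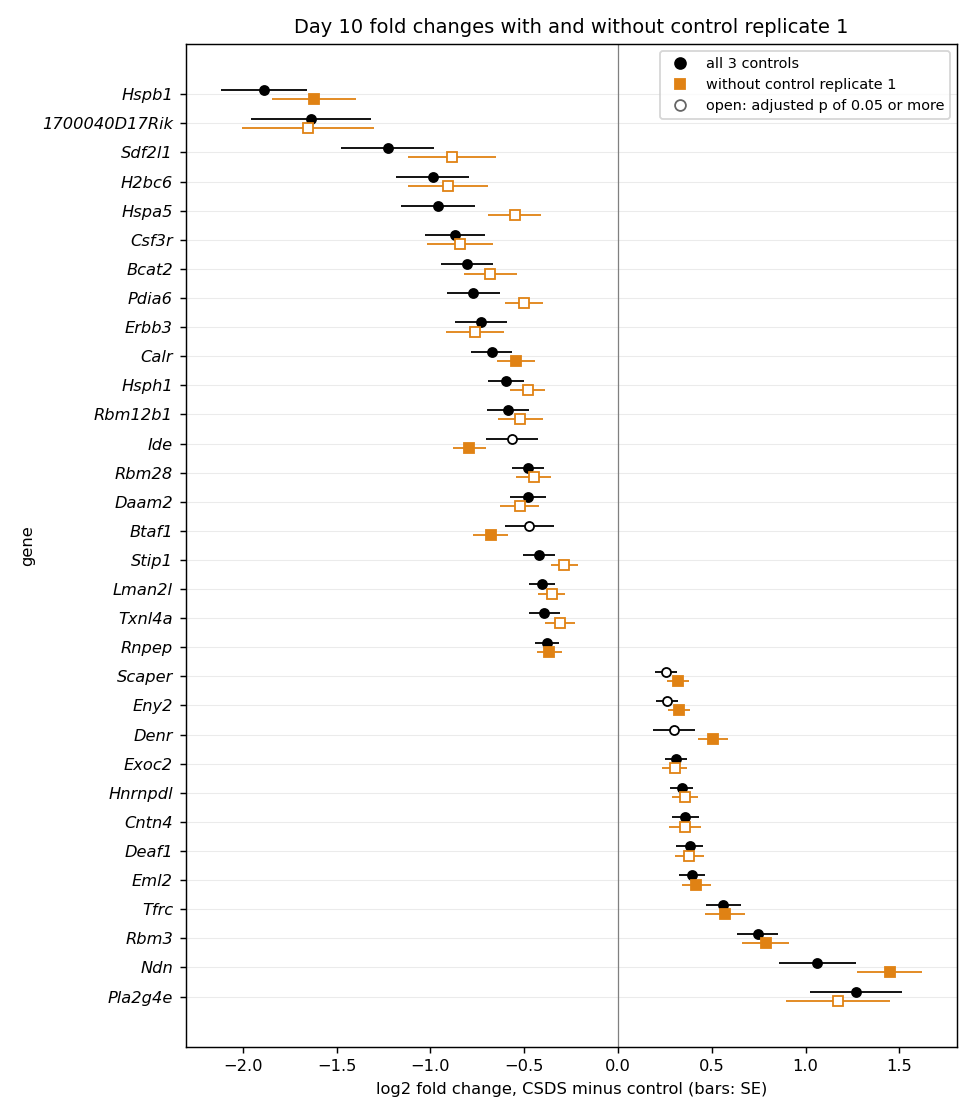
Day 10 log2 fold changes (x axis, CSDS minus control, bars: SE) of 32 genes with all 3 controls (circles) and without control replicate 1 (squares), with open symbols for an adjusted p of 0.05 or more. Hspa5 moves from -0.96 to -0.55 and Ndn from 1.06 to 1.45; the 3 loci high in control replicate 1 alone are left out.

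The number of calls depended on each library of the day. It was 12, 14 and 51 without control replicates 1, 2 and 3, and 2, 13 and 1 without CSDS replicates 1, 2 and 3. Hspb1 and Rbm3 were the 2 genes called without CSDS replicate 1, and Hspb1 the 1 gene called without CSDS replicate 3. Erbb3, Daam2, H2bc6 and Deaf1 were called in 0 of the 6 runs. The log2 fold changes of Hspa5 ran from -1.18 to -0.55 over the same 6 runs, those of Pdia6 from -0.93 to -0.50, of Hsph1 from -0.65 to -0.48 and of Ndn from 0.89 to 1.45, with the highest adjusted p at 0.281, 0.180, 0.131 and 0.149.

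Genes of the type I interferon response, which cells raise against viruses, had no called member but lay mostly on 1 side of 0. Of 24 tested, 23 lay below 0, with a median of -0.46, beside 46.3% below 0 over all genes. At an unadjusted p under 0.05, 11 were lower (5.62% of all genes). The 24 genes summed to 183, 249.7 and 179.5 CPM in controls and to 144.5, 167 and 146.6 in CSDS libraries, so the groups were apart and control replicate 2 was highest. Isg15, a ubiquitin-like modifier, stood at 1.96, 1.56 and 1.85 CPM in controls and at 0.739, 0.438 and 0.826 in CSDS libraries, with a value of -1.42 (adjusted p = 0.189). Irf7, the transcription factor that amplifies the response, stood at 2.34, 6.32 and 2.27 against 1.73, 1.65 and 1.42 CPM (-1.19, adjusted p = 0.206). Both were at low levels, and neither overlapped between groups. Without control replicate 1 the median was -0.61 and 14 were lower at an unadjusted p under 0.05 (4.04% of all genes). With the 2 tissue covariates the median was -0.27. Against the same arm on other days, the list's median was 0.59 in day 10 controls and 0.038 in day 10 CSDS libraries. Antigen presentation by MHC class I had 14 of 16 values below 0 (median -0.19), including Calr and Pdia3, which also serve there. With the 2 tissue covariates, 10 of the 16 lay below 0 (median -0.051). Against the same arm on other days, their median was 0.56 in day 10 controls and 0.30 in day 10 CSDS libraries.

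Activity-dependent and hormone-responsive genes had no call. Of 40 immediate early genes, 7 lay below 0 (median 0.13) and 6 were higher at an unadjusted p under 0.05, among them Egr1 at 0.34 (adjusted p = 0.252). Control replicate 1 was the lowest library for 25 of these 40, and without it 15 lay below 0 (median 0.077), with 0 higher and 1 lower at that threshold. Fos had 0.40 (adjusted p = 0.551), from 6.77 to 17.2 CPM in controls and from 11.4 to 19.5 in CSDS libraries. Npas4 had -0.35 (adjusted p = 0.719). Among 27 glucocorticoid receptor genes and targets, 6 were lower and 7 higher at an unadjusted p under 0.05 (4 and 2 without control replicate 1), and the textbook targets Fkbp5 and Tsc22d3 had 0.09 and 0.08. Of 21 clock genes, 6 were higher and none lower at that threshold (5 and 1 without control replicate 1), with Ciart at 0.62 and Cry2 at 0.23 (adjusted p = 0.135 and 0.206). Receptors for glutamate and GABA had 2 of 36 values below 0 (median 0.14), and 5 without control replicate 1 (median 0.10). With the tissue covariates, 12 of the 36 lay below 0 (median 0.043).

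With all controls, nuclear energy genes and protein turnover genes had medians near 0. Medians were -0.00425 for 73 nuclear genes of oxidative phosphorylation, 0.04 for 78 cytosolic ribosomal proteins and 0.04 for 35 proteasome subunits, with no call. Without control replicate 1, all 35 proteasome genes lay above 0 (median 0.13) and 15 were higher at an unadjusted p under 0.05 (6.54% of all genes). The medians of the oxidative phosphorylation and ribosomal genes were then 0.065 and 0.090, with 7 of 73 and 12 of 78 higher at that threshold. The 13 mitochondrially encoded genes had 1 value below 0 and a median of 0.18, which was 0.089 without control replicate 1, the lowest library for 9 of the 13.

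Day 10 was then set against days 1, 4 and 7. The response to CSDS on day 10 minus the mean response of the other days was called for 21 genes (0.116%), 11 higher and 10 lower. The smallest p belonged to Egr1, an activity-induced transcription factor, whose difference was 0.88 (SE 0.13, adjusted p = 0.0263). Its CSDS minus control values were -0.61, -0.74 and -0.27 on days 1, 4 and 7 and 0.34 on day 10. The clock repressors Per1 and Ciart differed by 0.90 and 0.94 and the membrane ubiquitin ligase Marchf9 by 0.58 (adjusted p = 0.0480, 0.0441 and 0.0441). Podxl, a sialomucin of vessels, differed by -0.63 (adjusted p = 0.0441), with 0.19, 0.59 and 0.22 on the earlier days and -0.30 on day 10. That number was not stable: leaving out any 1 of the 24 libraries gave between 0 and 48 calls, with 0 without day 10 control replicate 1 or day 10 CSDS replicate 1 and 48 without day 10 control replicate 3. It lay between 18 and 27 for the omission of day 4 CSDS replicate 3, day 7 control replicate 2, day 7 CSDS replicate 3 or day 10 CSDS replicate 2, and further off for each of the others. Hspb1, Rbm3, Rbm28, Bcat2, Csf3r, Daam2, Pla2g4e, 1700040D17Rik and LOC118568312 were called both here and on day 10. Both comparisons contain the same day 10 difference, so this overlap is not separate evidence.

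Hspa5 (-0.88, adjusted p = 0.118), Pdia6 (-0.71, adjusted p = 0.0766), Calr (-0.61, adjusted p = 0.0505), Hsph1 (-0.40, adjusted p = 0.145), Tfrc (0.22, adjusted p = 0.322) and Ndn (0.18, adjusted p = 0.737) were not called in that comparison. For Ndn the values were 0.94, 0.83, 0.86 and 1.06 on days 1, 4, 7 and 10. Over all 4 days its CSDS libraries held 403 to 567 CPM and its controls 185 to 391, with no overlap. Of the 9 genes that rose on day 10, 1 (Ndn) lay above 0 on day 1, 8 on day 4 and 8 on day 7. Of the 21 genes that fell, 2 lay below 0 on day 1, 14 on day 4 and 16 on day 7, beside 52%, 49.5% and 49.2% of all genes below 0 on those days. Tfrc was also higher in CSDS libraries on day 4, at 0.57 (adjusted p = 0.00929), and on day 7, at 0.58 (adjusted p = 0.0495), days on which 0.0498% and 0.00554% of all genes were called higher. Hspb1 was also lower on day 4, at -1.26 (adjusted p = 0.0186), a day on which 11 of 18060 genes were called lower.

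**Figure D5:**
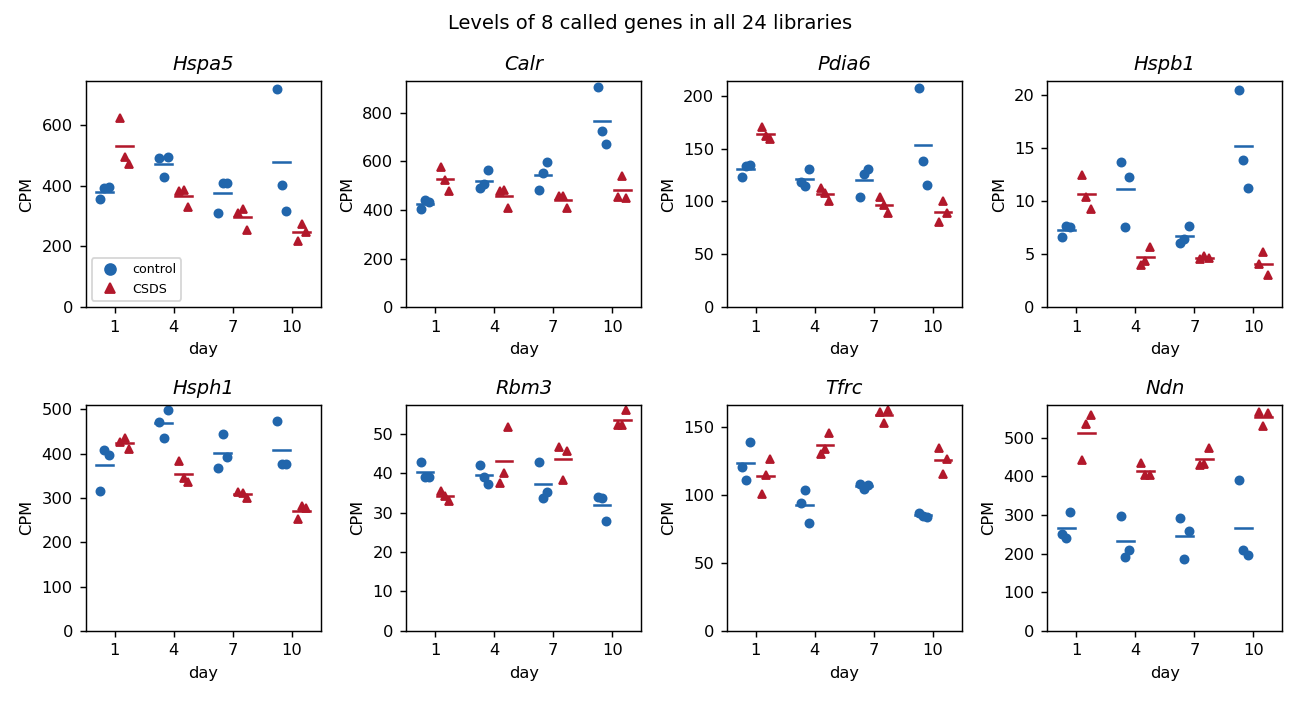
CPM of 8 called genes in all 24 libraries (x axis: day; y axis: CPM from 0; circles: control; triangles: CSDS; bars: means of 3). Day 10 controls of Calr, at 673 to 906 CPM, lie above every other library, day 10 CSDS libraries of Hspa5 reach 217, and Ndn is apart between arms on every day.

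Both arms of day 10 differed from the same arms of the other days, and the 2 contrasts share libraries with the day 10 comparison, so their values are only set side by side. Among controls, 5522 genes (30.6%) were called for day 10 against days 1, 4 and 7, and among CSDS libraries 6516 (36.1%). The genes with the smallest p were lower on day 10 in both arms. Clk1, a kinase of splicing factors, had -1.41 in controls and -1.68 in CSDS libraries, the splicing factor Rbm39 -0.93 and -1.19, the chromatin remodeller Atrx -0.94 and -0.96, the zinc finger proteins Zfp638 -1.16 and -1.02 and Zfp62 -1.33 and -1.32, and the cohesin loader Nipbl -0.73 and -0.73. Day, age and any batch of library preparation cannot be told apart in these contrasts.

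Set beside these, the genes that fell on day 10 were mixed. Of the 21, 14 were called higher in day 10 controls than in other controls (13.6% of all genes) and 11 were called lower in day 10 CSDS than in other CSDS libraries (18.2% of all genes). The 21 were chosen on these same day 10 libraries, so nothing is read from these counts. Calr was higher in controls by 0.64 (adjusted p = 7.27e-06) and stood at 0.02 in the CSDS arm (adjusted p = 0.858). Hspa5 was the reverse, at 0.24 in controls (adjusted p = 0.272, and -0.19 without control replicate 1) and lower by -0.65 in the CSDS arm (adjusted p = 0.00412). Hsph1 had -0.01 and -0.41, and Hspb1 0.89 and -0.59. Of the 9 that rose, 5 were called lower in the control arm (17% of all genes) and 5 higher in the CSDS arm (17.9%). Rbm3 had -0.29 and 0.42, Tfrc -0.33 and -0.11 and Ndn 0.10 and 0.28, where the value in controls was -0.30 without control replicate 1. Hnrnpdl was called lower on day 10 in both arms, at -0.49 in controls and -0.23 in CSDS libraries (adjusted p = 4.15e-07 and 0.00135).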

How the data were processed

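Poly(A) RNA of lateral septum was sequenced in 24 libraries, 3 for each of 8 groups. Per the submitters' processing notes, fastp, HISAT2 and HTSeq were used with GRCm39; versions are not given in the sources used here. The authors deposited gene counts, which were tested, and FPKM values, used only for levels per length. Total counts per library were 31182747 to 41205354. Genes were filtered by filterByExpr, leaving 18060 of 28859, and tested with TMM factors in edgeR 4.0.16 (quasi-likelihood, R 4.3.3, limma 3.58.1) over 8 group means with 16 residual degrees of freedom. P-values were adjusted by Benjamini-Hochberg over all genes tested, with a threshold of 0.05. CPM values are counts scaled by total count and TMM factor. DESeq2 1.42.0, other filters and scalings, covariates, a replicate block and omission of single libraries were alternatives. The procedure was tested on simulated counts. Before averaging, every pair of libraries within a group was compared, and all differed beyond sampling noise. Same-numbered libraries had correlations of -0.19 to 0.038 on day 10, 0.094 to 0.18 on day 1 and -0.42 to 0.18 over all days. These values cannot show whether same-numbered libraries shared a batch. Intervals on shares cover counting error only.

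Named genes were those called with or without control replicate 1, up to 4 genes of smallest p per list, 10 fixed genes such as Manf and up to 10 genes per contrast with other days. The comparison and the gene lists were chosen with earlier results of these data known. Promoter windows came from RefSeq tables of GRCm38.p6, not the build of the counts, and were matched by Entrez gene number.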

Additional observations from a re-analysis of the deposited data

Results flagged for a closer look

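For 9 of the genes called on day 10, the difference between CSDS and control on that day also differed, by the test of the difference in the edgeR model, from the mean difference on days 1, 4 and 7. This test contains the day 10 difference on which the genes were called, so the overlap is not separate evidence. The comparison had no call without day 10 control replicate 1, without day 10 CSDS replicate 1 or with the tissue scores as covariates. Hspb1 differed by -1.48 on the log2 scale (adjusted p = 0.0441), with daily values of 0.56, -1.26 and -0.53 before the -1.89 of day 10. Its day 4 value was itself called lower (adjusted p = 0.0186), so its fall was not particular to day 10. Rbm3 differed by 0.71, Pla2g4e by 1.52, Bcat2 by -0.90, Csf3r by -0.96, Daam2 by -0.57, Rbm28 by -0.54 and 1700040D17Rik by -2.12, all with an adjusted p of 0.0441. LOC118568312 differed by -7.71 (adjusted p = 0.0480), and its day 10 value rested on control replicate 1.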

How the results depend on the processing

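On day 10 the 30 calls became 128 with DESeq2, 3 with choroid plexus and cortical neuron scores as covariates and 0 with the day 10 libraries alone (edgeR, 1523 genes at an unadjusted p under 0.05), where 4 residual degrees of freedom remain. They stayed between 30 and 34 with RLE size factors, without LOC118568312 and under the 2 other filters, and ran from 1 to 51 over the omission of single libraries. The 21 differences from the other days became 183 with DESeq2, 0 with the covariates and 36 without a filter on low counts, and ran from 0 to 48 over the omissions. With the replicate block, 1 gene was called on day 10 (Hspb1, adjusted p = 0.00979) and 1 in the difference from other days. The labels do not say whether same-numbered libraries share more than a number. The counts for each arm against other days stayed within 1.5 times. Signs turned for uncalled values near 0. Atf4 had -0.00369 with DESeq2, -0.00406 with RLE size factors, -0.00207 under the stricter filter, -0.055 with covariates and -0.00348 with day 10 alone. Over the omission of single libraries it ran from -0.047 to 0.12, Fkbp5 from -0.025 to 0.14, Npas4 from -0.86 to 0.19 and Tsc22d3 from -0.15 to 0.21. In the control arm against other days, Hspa5 ran from -0.19 to 0.45 and Ndn from -0.30 to 0.27, both lowest without day 10 control replicate 1, and Hsph1 from -0.14 to 0.043. In the CSDS arm, Calr ran from -0.063 to 0.062. The cause of these changes was not tested.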
